A study of Mus musculus with 8 samples.

Results

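The genes described here are 8 that carry or govern potassium secretion into endolymph, taken by symbol from count tables of 41079 genes: the channel subunits Kcnq1 and Kcne1, the chloride channel subunit Bsnd, the cotransporter Slc12a2, the channel Kcnj10 and the transcription factors Esrrb, Esrrg and Lmx1a. All 8 were counted and all 8 were among the 20581 genes that passed the low-count filter. They were measured by sequencing of rRNA-depleted total RNA from mouse organ of Corti, micro-dissected on the day of birth (P0). The groups are 4 libraries labelled Prox1 knock-out (Emx2-cre; floxed-Prox1), in which Cre is driven from Emx2 and acts on a floxed Prox1 gene, and 4 wildtype libraries. The labels give neither the strain nor the number of animals per library, and no label ties a library to an animal of its own. The p-values therefore rest on the variation among these libraries, part of which may be technical. The study compared the groups to learn what Prox1 does in the organ of Corti.

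Endolymph, the fluid that bathes the tops of the hair cells, is rich in potassium, which marginal cells of the stria vascularis in the lateral wall pump into it. Marginal cells take up potassium across their basolateral membrane through the sodium-potassium pump and the cotransporter NKCC1, encoded by Slc12a2. Chloride leaves again through basolateral channels with their barttin subunit (Bsnd), and potassium passes into endolymph through the apical channel made of Kcnq1 and Kcne1. Kcnj10 encodes Kir4.1, the channel of the pigmented intermediate cells that underlies the endocochlear potential, and supporting cells and glia of the ear also use it. In mice Esrrb, an orphan nuclear receptor, is needed for marginal cell identity, and Lmx1a, a LIM homeodomain factor, marks non-sensory epithelium of the ear. The stria lies outside the organ of Corti, and dark cells of the vestibular organs use much the same secretory machinery.

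Prox1 was higher in the libraries labelled knockout, with 147, 137, 138 and 134 CPM (counts scaled to a common library size), than in wildtype, with 109, 114, 106 and 115 CPM. That is a log2 fold change of 0.33 ± 0.05 (SE) at an adjusted p of 0.0298 (edgeR, Benjamini-Hochberg). The whole-gene level of the targeted gene was thus not lower under the knockout label, and every direction below is that of the labels. Emx2, the gene whose promoter drives Cre, had 17.6, 18.3, 23.0 and 19.9 CPM in the libraries labelled knockout and 14.3, 15.4, 17.9 and 17.1 CPM in wildtype. Reads of the floxed part alone were not analysed here, so these whole-gene counts do not decide whether the labels are right. The libraries labelled knockout held 29908965 to 32613549 counts and the wildtype libraries 32863533 to 42318233. Organ of Corti markers were present in every library, and the summed level of 11 of them was 6266 to 6919 CPM in those labelled knockout and 6272 to 7012 CPM in wildtype. CPM values below are scaled by TMM, which corrects library totals for composition.

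Of the 8 genes, none passed the threshold, an adjusted p under 0.05 in edgeR's quasi-likelihood test over all tested genes, where 0.0923% of genes did, 0.034% higher and 0.0583% lower. At an unadjusted p under 0.05, 4 of the 8 were lower in the libraries labelled knockout (Kcne1, Esrrb, Bsnd and Kcnq1) and 0 higher, while 2.78% of tested genes were lower and 4.76% higher. This is no test of the 8 genes as a set, because they were chosen with earlier results of these data known. Kcne1, Esrrb and Bsnd also shared part of their order of libraries, so they do not count as independent. DESeq2 called 1 of the 8, Kcne1, and over all 20579 genes it called 35 higher and 48 lower. With limma-voom 0 of the 8 were called, against 7 genes higher and 11 lower over all genes. The log2 fold change lay below 0 for 7 of the 8 and above 0 for Esrrg, with a median of -0.33, against a median of 0.00 over all tested genes, 10290 of which lay below 0. The genes divided by spread: Kcne1, Esrrb and Bsnd varied several-fold among wildtype libraries, Kcnq1 varied moderately, and Lmx1a, Esrrg, Slc12a2 and Kcnj10 varied by less than 2-fold over all 8 libraries.

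**Figure D1:**
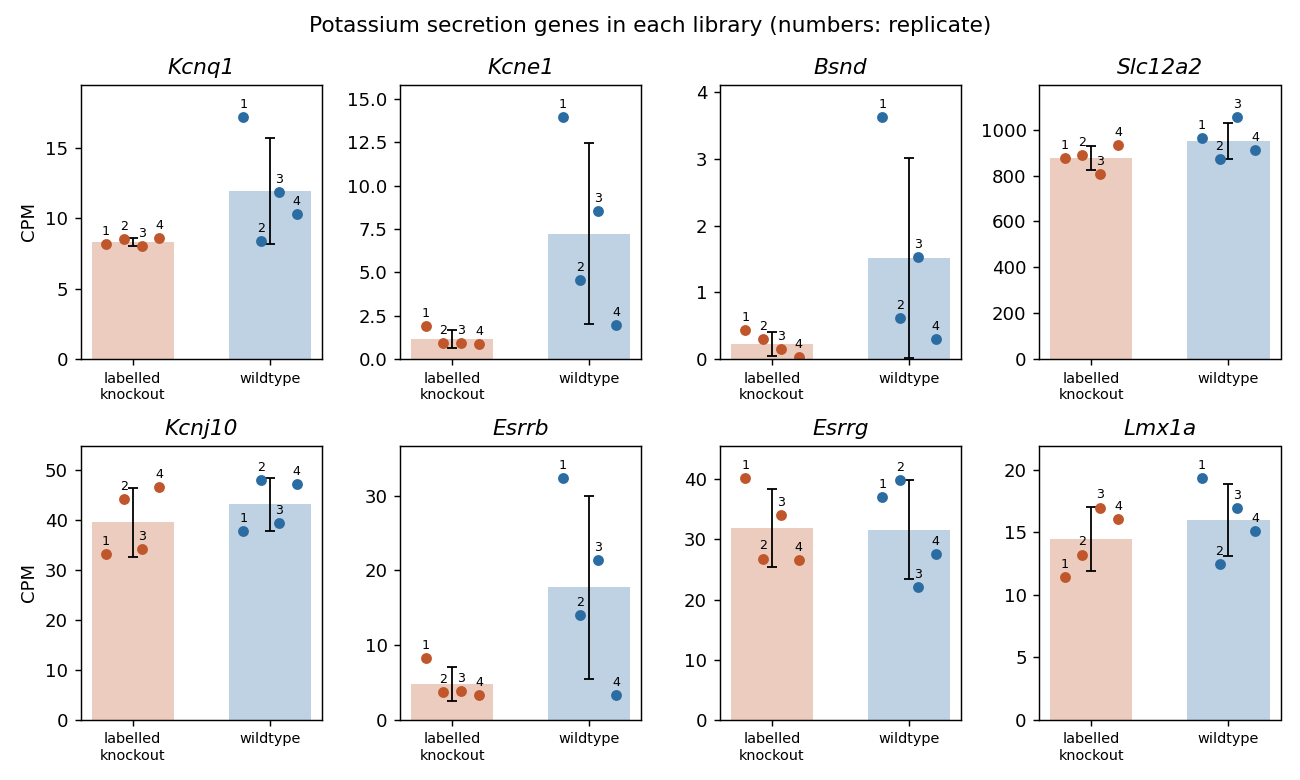
CPM of each gene in each library on linear axes, libraries labelled knockout left and wildtype right, with bars at the mean, error bars of 1 SD (n = 4 per group) and points numbered by replicate. Kcne1, Bsnd and Esrrb run from the highest value in wildtype library 1 down to wildtype library 4, which sits at 1.94, 0.299 and 3.29 CPM, beside the libraries labelled knockout.

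Kcne1, the small single-pass subunit that slows the opening of the Kcnq1 channel, had 1.90, 0.951, 0.927 and 0.851 CPM in the libraries labelled knockout 1 to 4. In wildtype libraries 1 to 4 it had 13.9, 4.53, 8.52 and 1.94 CPM. The groups did not overlap, although wildtype library 4 exceeded library 1 labelled knockout by very little. Of the 8 genes Kcne1 was the only one whose groups did not overlap, which held for 3.69% of tested genes in either direction and for 1.62% with wildtype above. The means were 1.16 ± 0.50 CPM in the libraries labelled knockout and 7.23 ± 5.23 CPM in wildtype (SD, n = 4 per group). The log2 fold change of -2.65 ± 0.51 (SE) had an adjusted p of 0.139 (edgeR, Benjamini-Hochberg). In bulk tissue, fewer cells of a type and less RNA per cell cannot be told apart.

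In the authors' deposited table, Kcne1 had a log2 fold change of -2.65 with an adjusted p of 0.00966 by DESeq2, and the other 7 genes had adjusted p of 0.249 or more there. The direction of that table, not stated in it, was read from its signs. Without wildtype library 4, the log2 fold change of Kcne1 was -2.97 and passed the threshold (adjusted p = 0.0119 by edgeR, with a range of 0.00402 to 1.00 over all alternatives). That library was the lowest of wildtype for Kcne1, so leaving it out enlarges the difference and narrows the wildtype range by construction. Without wildtype libraries 1 and 3 together the log2 fold change was -1.51 ± 0.37 and did not pass. Those libraries held the highest Kcne1 levels, so leaving them out shrinks the difference by construction.

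Kcnq1, the pore-forming subunit of the same channel, had 8.17, 8.53, 8.02 and 8.58 CPM in the libraries labelled knockout and 17.2, 8.40, 11.9 and 10.3 CPM in wildtype. The groups overlapped, since wildtype library 2 lay among the libraries labelled knockout. The coefficient of variation was 3.28% in the libraries labelled knockout and 31.6% in wildtype. The means were 8.32 ± 0.27 CPM in the libraries labelled knockout and 11.9 ± 3.77 CPM in wildtype (SD, n = 4 per group), with a log2 fold change of -0.52 ± 0.18 (SE) at an adjusted p of 0.594 (edgeR, Benjamini-Hochberg). Without wildtype library 1, the highest, it was -0.29 ± 0.13. Kcnq1 overlaps Kcnq1ot1, a noncoding RNA read from the opposite strand, by 2.96% of its exon bases in GENCODE M21. Whether counting used strand is not stated in the sources used here, so reads in that stretch cannot be told apart. Kcnq1ot1 itself spanned 329 to 512 CPM in those labelled knockout and 258 to 471 CPM in wildtype, with a log2 fold change of 0.31 ± 0.18.

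The ratio of Kcne1 to Kcnq1 transcripts, each taken as CPM per kilobase of exon, was set up after the values were seen. It was 0.296, 0.142, 0.147 and 0.126 in the libraries labelled knockout, against 1.03, 0.687, 0.915 and 0.240 in wildtype. Thus the accessory subunit was close to the pore subunit in wildtype libraries 1 and 3 and well below it in wildtype library 4 and in every library labelled knockout. The groups overlapped, because library 1 labelled knockout exceeded wildtype library 4.

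Bsnd, the barttin subunit that brings chloride channels to the membrane, was the scarcest of the 8 genes per length, with 13, 10, 5 and 1 counts in the libraries labelled knockout and 140, 27, 52 and 10 counts in wildtype. As levels these were 0.441, 0.297, 0.150 and 0.0315 CPM in the libraries labelled knockout and 3.62, 0.621, 1.52 and 0.299 CPM in wildtype. Wildtype library 4 lay among the libraries labelled knockout here too. For Bsnd the log2 fold change of -2.72 ± 0.76 (SE) had an adjusted p of 0.471 (edgeR, Benjamini-Hochberg). Without wildtype library 1 it was -1.82 ± 0.65. The highest library exceeded the lowest 115-fold, a ratio that rests on 1 count in library 4 labelled knockout and has a 95% exact interval of 20.3 to 4568 for counting error only.

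Slc12a2, the basolateral sodium-potassium-chloride cotransporter, was the most abundant of the 8 per length, with 877, 888, 805 and 932 CPM in the libraries labelled knockout and 964, 873, 1054 and 912 CPM in wildtype. The groups overlapped, and the highest library exceeded the lowest by 1.31-fold. The means were 875 ± 52.8 CPM in the libraries labelled knockout and 951 ± 78.1 CPM in wildtype (SD, n = 4 per group). Its log2 fold change of -0.12 ± 0.07 (SE) had a 95% interval of -0.26 to 0.02 and an adjusted p of 0.671 (edgeR, Benjamini-Hochberg).

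Kcnj10 had 33.1, 44.2, 34.2 and 46.5 CPM in the libraries labelled knockout and 37.8, 48.1, 39.4 and 47.3 CPM in wildtype. Libraries 2 and 4 of both groups were the 4 highest and libraries 1 and 3 of both groups the 4 lowest, so the spread did not follow the genotype label. Its log2 fold change of -0.13 ± 0.12 (SE) had a 95% interval of -0.36 to 0.11 and an adjusted p of 0.758 (edgeR, Benjamini-Hochberg).

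Esrrb, the nuclear receptor of marginal cell identity, had 8.21, 3.75, 3.80 and 3.31 CPM in the libraries labelled knockout and 32.4, 14.0, 21.4 and 3.29 CPM in wildtype. Wildtype libraries 1, 2 and 3 lay above every library labelled knockout, and wildtype library 4 was level with the lowest of them. The means were 4.77 ± 2.31 CPM in the libraries labelled knockout and 17.8 ± 12.2 CPM in wildtype (SD, n = 4 per group). Its log2 fold change of -1.91 ± 0.52 (SE) had an adjusted p of 0.440 (edgeR, Benjamini-Hochberg). Without wildtype library 4 it was -2.25 ± 0.33 and passed the threshold (adjusted p = 0.0272 by edgeR, with a range of 0.0272 to 1.00 over all alternatives). That library was the lowest for Esrrb, so leaving it out enlarges the difference and narrows the wildtype range by construction. Without wildtype libraries 1 and 3 together, the highest for Esrrb, the log2 fold change was -0.89 ± 0.46, a shrinkage that their removal brings by construction.

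Lmx1a had 11.4, 13.2, 17.0 and 16.1 CPM in the libraries labelled knockout and 19.3, 12.5, 17.0 and 15.1 CPM in wildtype. The groups overlapped, and the lowest values were those of library 1 labelled knockout and wildtype library 2. The groups differed by a log2 fold change of -0.14 ± 0.15 (SE), with a 95% interval of -0.43 to 0.14.

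Esrrg, the receptor most like Esrrb among the 8, had 40.2, 26.8, 34.0 and 26.5 CPM in the libraries labelled knockout and 37.0, 39.9, 22.1 and 27.5 CPM in wildtype. The highest library was library 1 labelled knockout and the lowest wildtype library 3. The fitted log2 fold change, 0.01 ± 0.18 (SE), had a 95% interval of -0.34 to 0.36. The related receptors thus had unlike profiles: wildtype library 3 held the second highest level of Esrrb and the lowest level of Esrrg.

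The start regions of Esrrb and Lmx1a are shown because these regulators differed most in spread, Esrrb being the most and Lmx1a the least variable of the 3 transcription factors. RefSeq promoter sequences of GRCm38.p6, each a window of 300 bases around a transcript start, were found for 4 of the 8 genes in 8 windows: Esrrb, Esrrg, Lmx1a and Kcnj10. Kcne1, Kcnq1, Bsnd and Slc12a2 had no entry used here. The capital letter marks the annotated start base, and all 3 windows are on the plus strand, at chr12:86360867-86361166, chr12:86421394-86421693 and chr1:167689308-167689607.
Esrrb, first window: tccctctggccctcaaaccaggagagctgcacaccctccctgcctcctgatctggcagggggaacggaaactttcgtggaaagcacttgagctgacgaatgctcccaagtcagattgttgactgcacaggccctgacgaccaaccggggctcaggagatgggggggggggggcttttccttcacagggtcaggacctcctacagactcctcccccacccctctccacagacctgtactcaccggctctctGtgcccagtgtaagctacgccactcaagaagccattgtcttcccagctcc
Esrrb, second window: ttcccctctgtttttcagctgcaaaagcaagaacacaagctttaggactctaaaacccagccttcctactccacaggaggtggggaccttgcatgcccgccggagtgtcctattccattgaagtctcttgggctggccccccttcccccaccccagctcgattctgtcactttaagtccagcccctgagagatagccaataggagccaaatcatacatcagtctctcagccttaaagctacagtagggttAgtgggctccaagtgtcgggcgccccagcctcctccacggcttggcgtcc
Lmx1a: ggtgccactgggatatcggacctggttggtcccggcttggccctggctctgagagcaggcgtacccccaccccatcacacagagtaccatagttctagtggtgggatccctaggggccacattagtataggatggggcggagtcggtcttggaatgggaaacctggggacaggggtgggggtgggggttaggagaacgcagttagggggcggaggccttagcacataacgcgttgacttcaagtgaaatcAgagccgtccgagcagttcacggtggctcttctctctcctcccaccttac
The windows were searched on both strands for the estrogen-related receptor element TCAAGGTCA, for its core AAGGTCA, which the longer element contains, and for the homeodomain core TAATTA. None of the 8 windows held any of them, and among all 32851 RefSeq promoters the shares holding each were 0.423%, 4.72% and 5.29%. The GC content was 60.0 and 55.3% in the Esrrb windows and 59.3% in the Lmx1a window, against a median of 52.7% over all promoters.

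Transcript levels of the 8 genes can be ordered only per length, here as CPM per kilobase of exon in GENCODE M21, which is built on GRCm38 where the authors used GRCm39. In the libraries labelled knockout the order was Slc12a2 (80.2 ± 4.84), Kcnj10 (7.31 ± 1.27), Esrrg (5.13 ± 1.05), Lmx1a (4.25 ± 0.75), Kcnq1 (2.03 ± 0.07), Esrrb (0.788 ± 0.381), Kcne1 (0.360 ± 0.154) and Bsnd (0.0834 ± 0.0645; all CPM per kilobase, SD, n = 4). Neighbours whose libraries overlapped there were Kcnj10 and Esrrg, Esrrg and Lmx1a, and Esrrb and Kcne1. In wildtype Slc12a2 had 87.1 ± 7.15, Kcnj10 7.98 ± 0.98, Esrrg 5.09 ± 1.33 and Lmx1a 4.70 ± 0.85 CPM per kilobase. Esrrb (2.94 ± 2.02), Kcnq1 (2.92 ± 0.92) and Kcne1 (2.25 ± 1.63) followed closely in wildtype, and Bsnd (0.550 ± 0.543) came last. From Esrrg down to Bsnd, the libraries of each pair of neighbours overlapped in wildtype.

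Spread within the groups was set against that of all tested genes through edgeR's biological coefficient of variation, which takes counting noise out. It was 0.642 for Bsnd, 0.481 for Esrrb and 0.448 for Kcne1, all 3 at the 99.7th percentile of tested genes or higher, whose median was 0.111. Kcnq1 and Esrrg had 0.178 each, at the 73.8th and 73.9th percentiles, Lmx1a had 0.148, Kcnj10 0.121 and Slc12a2 0.0739. Highest over lowest CPM was 16.4-fold for Kcne1, 9.85-fold for Esrrb and 2.14-fold for Kcnq1, against a median of 1.38-fold over tested genes. Within wildtype alone it was 7.18-fold for Kcne1, 9.85-fold for Esrrb, 12.1-fold for Bsnd and 2.04-fold for Kcnq1. The mean wildtype levels of these genes were 6.25, 3.73, 6.60 and 1.43 times those of the libraries labelled knockout. For all 4 the ratio of the highest to the lowest wildtype library exceeded the ratio of the group means. The first compares single libraries and the second averages, so this is no test of the group difference.

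**Figure D2:**
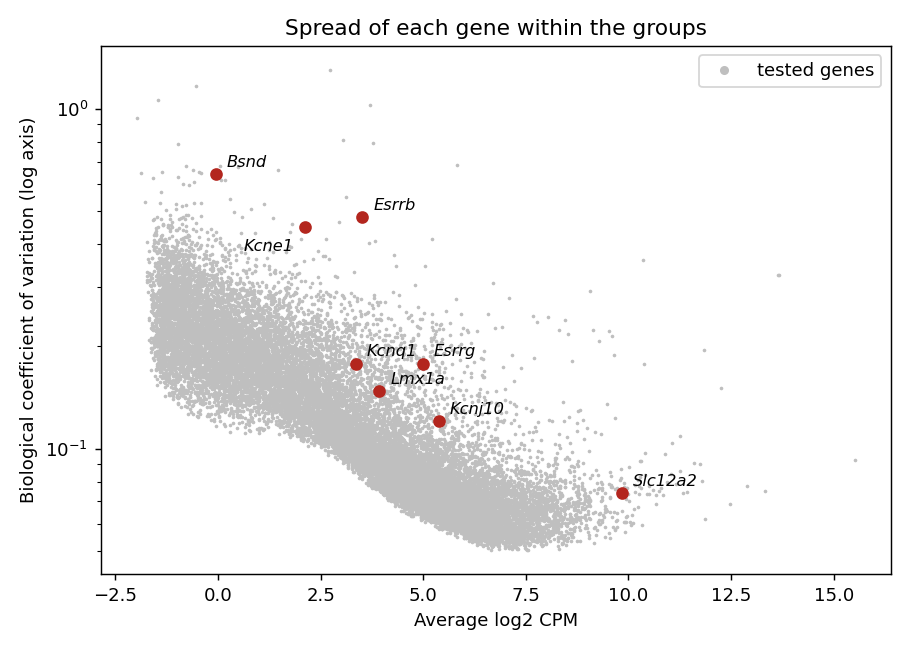
Biological coefficient of variation within groups (log axis) against average log2 CPM for the 20581 tested genes (grey) and the 8 genes described (red, named). Bsnd (0.642), Esrrb (0.481) and Kcne1 (0.448) stand above most genes of like level, and Slc12a2 (0.0739) is the steadiest of the 8.

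The variable genes shared part of their order of libraries. Wildtype libraries 1, 3 and 2 came first, in that order, for Kcne1, Esrrb and Bsnd alike, and library 1 was the highest of those labelled knockout for all 3. Wildtype library 4 came next for Kcne1, after library 1 labelled knockout for Bsnd, and last for Esrrb. By a rule over centred log2 CPM profiles of 17204 other genes whose mean log2 CPM was 0 or more, the genes nearest to Kcne1 over the 8 libraries were Esrrb (root mean square distance 0.43), Dct (0.56) and Gpnmb (0.62), where the median gene lay at 1.42. Bsnd was under that minimum level and was not among the genes compared, but its profile lay at 0.53 from that of Kcne1, nearer than Dct and Gpnmb, and at 0.65 from that of Esrrb. Nearest to Esrrb were Tyr (0.41), Dct (0.41) and Kcne1 (0.43). Tyr and Dct encode enzymes of melanin synthesis, and Gpnmb a glycoprotein of melanosomes. Tyr and Gpnmb had at most 0.746 and 0.688 CPM in wildtype library 4 and the libraries labelled knockout, so their profiles there rest on few reads. The distance keeps the size of the spread, so only genes that vary about as widely can lie near Kcne1 or Esrrb. Nearest to Kcnq1 were Car3, a carbonic anhydrase gene (0.08), Ehd3 (0.15) and Tfcp2l1 (0.15), with the median gene at 0.37.

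Dct had 3.29, 2.62, 2.87 and 2.77 CPM in the libraries labelled knockout and 17.2, 7.04, 8.96 and 2.84 CPM in wildtype. Tyr had 0.746, 0.178, 0.209 and 0.410 CPM in the libraries labelled knockout and 2.90, 1.15, 1.99 and 0.119 CPM in wildtype. As with Esrrb, wildtype library 4 lay at the level of the libraries labelled knockout. Of 15 genes of the melanocyte and intermediate cell list 11 were tested, 0 passed, 9 lay below 0, and the median log2 fold change was -0.16. Lowest p belonged to Kit, a receptor of melanoblasts (-0.25 ± 0.05), to Pmel (-0.96 ± 0.22) and to Dct (-1.64 ± 0.40), with adjusted p of 0.125, 0.326 and 0.354 (edgeR, Benjamini-Hochberg). The regulators Mitf and Sox10 had log2 fold changes of 0.01 ± 0.09 and 0.02 ± 0.05. Oca2, another pigment gene, was highest in wildtype library 4, with 5.02 CPM, so the genes of the list did not share one order of libraries. The summed level of the 15 genes ran from 672 to 747 CPM in those labelled knockout and from 750 to 762 CPM in wildtype. Dct and Tyr, at 17.2 and 2.90 CPM at most, made up little of this sum, which was set by other genes of the list. Of the pigment genes, Tyrp1 was at 0 in wildtype library 4, Mlana in library 4 labelled knockout, and Gpr143 in libraries 1, 3 and 4 labelled knockout.

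The mean log2 CPM of the 11 tested genes of the melanocyte list was 3.52, 3.41, 3.43 and 3.59 in the libraries labelled knockout and 4.24, 3.93, 4.06 and 3.46 in wildtype. With it as a covariate, the log2 fold change was -0.75 ± 0.36 for Kcne1, 0.30 ± 0.38 for Esrrb, -0.13 ± 0.84 for Bsnd and -0.15 ± 0.22 for Kcnq1. Without the covariate the values were -2.65, -1.91, -2.72 and -0.52. The score was higher in wildtype libraries 1, 2 and 3 than in every library labelled knockout, so it partly follows the label. It also holds Dct and Tyr, which were among the nearest profiles of Esrrb. Values nearer to 0 thus come in part by construction. The part of other cell types in the differences of these 4 genes was not tested.

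**Figure D3:**
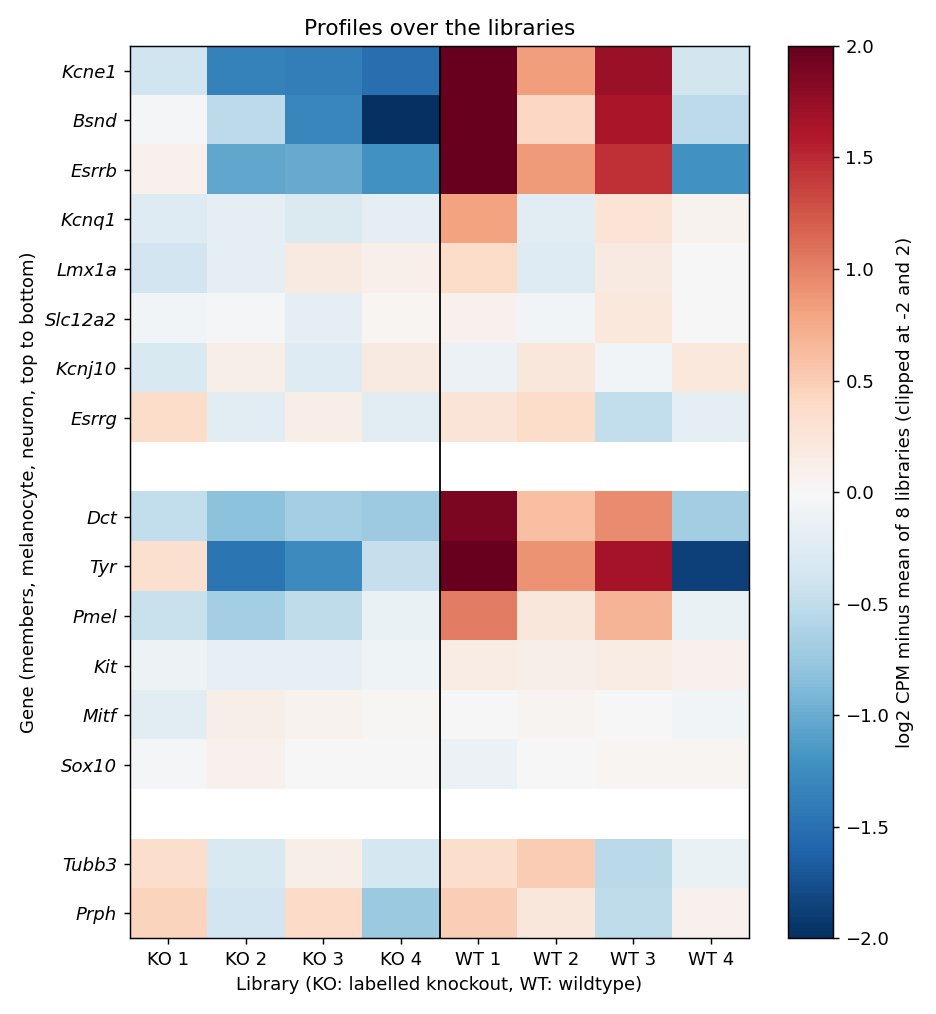
Log2 CPM minus the mean of the 8 libraries for the 8 genes (top block) and for melanocyte and neuron genes (lower blocks), libraries labelled knockout (KO) left and wildtype (WT) right, colours clipped at -2 and 2. Kcne1, Bsnd and Esrrb are high in wildtype libraries 1, 2 and 3, as are Dct, Tyr and Pmel but not Mitf and Sox10 of the same list, and Esrrg, like Tubb3, is lowest in wildtype library 3.

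Each of the 8 profiles was also set against the mean profile of 13 gene lists, a comparison chosen after the values were seen. The melanocyte and intermediate cell list was the nearest for Kcne1, Esrrb, Bsnd and Kcnq1, though not close to them. Its distance was 1.13 from Kcne1, 0.95 from Esrrb, 1.32 from Bsnd and 0.22 from Kcnq1, where the spreads of these profiles themselves were 1.41, 1.23, 1.56 and 0.35. For Esrrg the nearest was the spiral ganglion neuron list, at a distance of 0.17, where the profile of Esrrg itself had a spread of 0.30. Tubb3, the tubulin gene of neurons, had 53.4, 34.0, 45.6 and 33.0 CPM in the libraries labelled knockout and 53.3, 60.0, 28.9 and 38.1 CPM in wildtype, so its lowest library was also wildtype library 3. For Kcnj10 the nearest was the glia list (0.14, own spread 0.20). The genes nearest to Kcnj10 in the whole table were Slitrk4 (0.05), Sostdc1 (0.06) and Foxd2os (0.06), with the median gene at 0.23. Lmx1a lay nearest to the other marginal cell markers (0.13) and Slc12a2 to the stria basal cell list (0.06).

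Pumps and chloride channels that work with the 8 genes came next. Of 8 such genes 0 passed, 7 lay below 0, and the median log2 fold change was -0.10. Lowest p belonged to Atp1b2 (-0.26 ± 0.10) and Atp1b3 (-0.13 ± 0.06), beta subunits of the sodium-potassium pump. Atp1b2 had 65.2, 65.5, 76.6 and 80.5 CPM in the libraries labelled knockout and 95.2, 71.0, 93.9 and 84.3 CPM in wildtype, and the groups overlapped. Among 4 kinases that activate the cotransporter, 0 passed, with Wnk4 at 0.18 ± 0.11, Stk39 at 0.02 ± 0.05 and Oxsr1 at -0.03 ± 0.06.

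**Figure D4:**
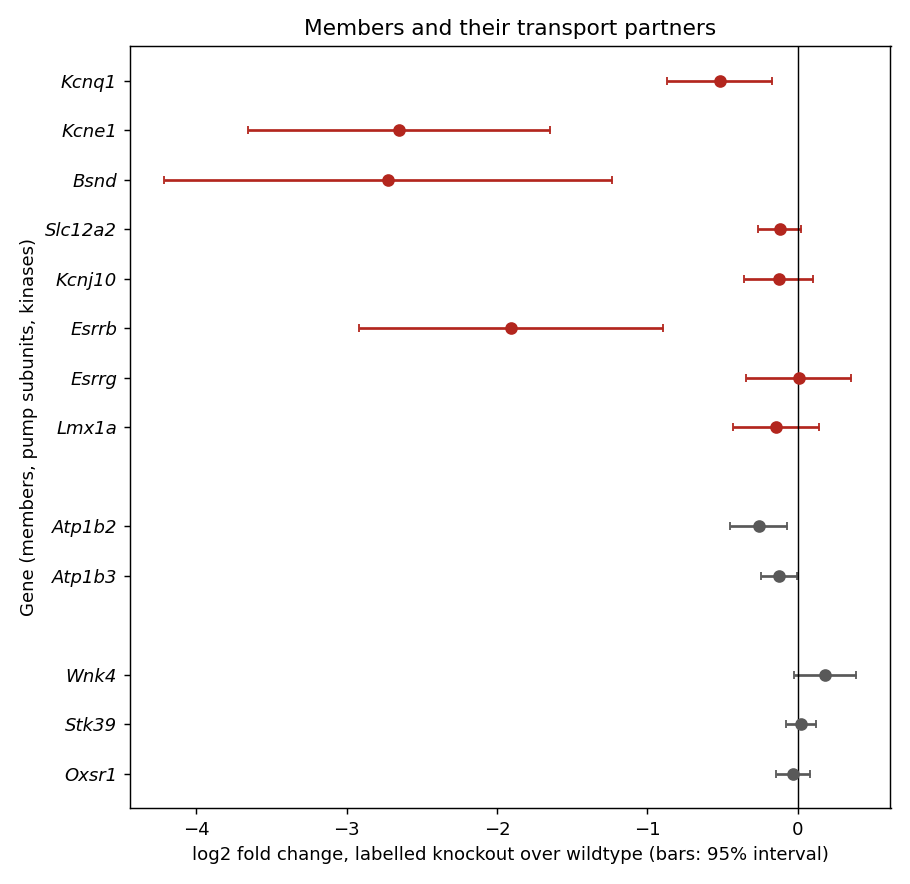
Log2 fold change of the libraries labelled knockout over wildtype for the 8 genes (red), 2 pump subunits and 3 kinases of the cotransporter (grey), with bars of 95% intervals. Kcne1 (-2.65), Bsnd (-2.72) and Esrrb (-1.91) lie far left with wide bars, and the pump subunits lie at -0.26 (Atp1b2) and -0.13 (Atp1b3).

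Other marginal cell markers were followed too. Of 7 such genes, which include Atp1b2 and share others with the pump and chloride channel list, 0 passed, 6 lay below 0, and the median was -0.14. Abcg1, a cholesterol transporter gene, had 46.7, 42.6, 43.8 and 47.7 CPM in the libraries labelled knockout and 50.8, 49.2, 50.9 and 48.5 CPM in wildtype (log2 fold change -0.14 ± 0.05), without overlap. Wildtype lay wholly above for 1.62% of tested genes. Hmx2, a homeobox gene of the inner ear, had 0.339, 0.119, 0.658 and 0.284 CPM in the libraries labelled knockout and 1.40, 0.575, 1.29 and 0.0597 CPM in wildtype, where library 4 was again the lowest (-1.24 ± 0.66).

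Of 16 paralogues of the 8 genes, 14 were tested and 0 passed, 9 lay above 0, and the median log2 fold change was 0.02. Kcnj15, an inward rectifier gene, had 1.15, 0.832, 0.957 and 1.73 CPM in the libraries labelled knockout and 0.414, 0.460, 0.263 and 0.568 CPM in wildtype, without overlap, a log2 fold change of 1.44 ± 0.31 with an adjusted p of 0.223 (edgeR, Benjamini-Hochberg). Groups without overlap, in either direction, were found for 3.69% of tested genes. Kcnj16, which can pair with Kir4.1, had 0.40 ± 0.14, and Kcne4 had -0.62 ± 0.33. Esrra, the third receptor of the family, had 0.02 ± 0.10.

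**Figure D5:**
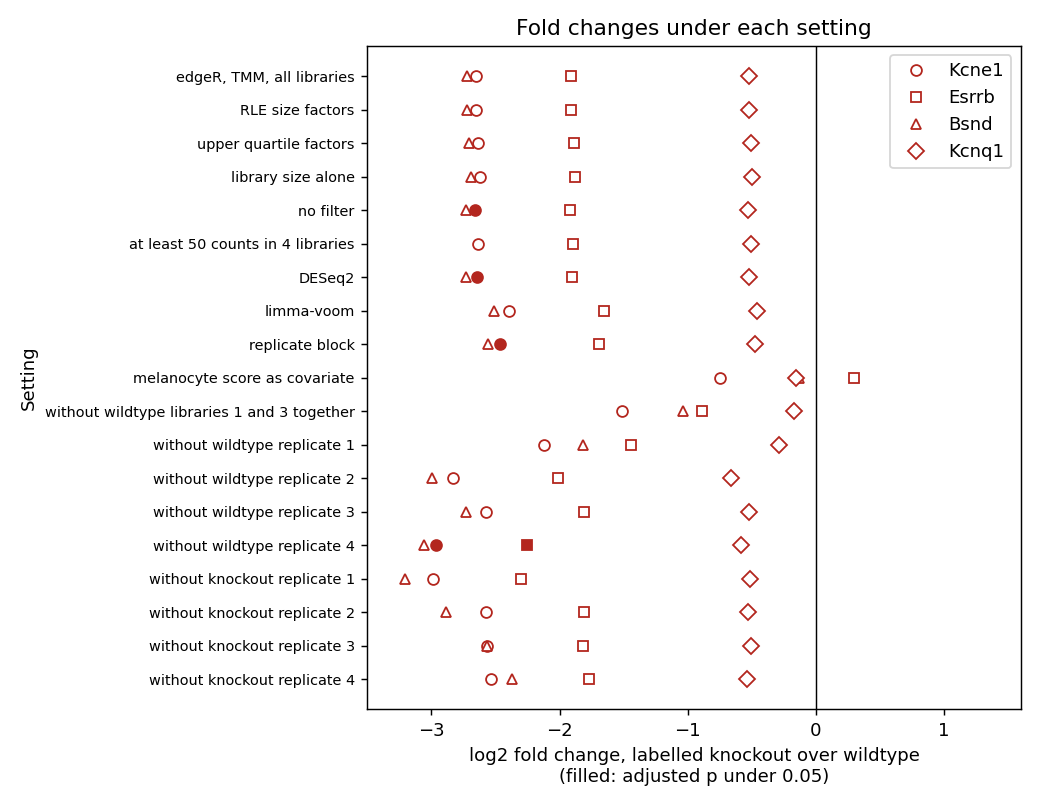
Log2 fold change of Kcne1, Esrrb, Bsnd and Kcnq1 (labelled knockout over wildtype) under each of 19 settings, filled where the adjusted p was under 0.05. Kcne1 is filled in 4 alternatives and Esrrb in 1. The melanocyte score holds Dct and Tyr and partly follows the label. With it as a covariate, all 4 genes lie nearer to 0 and Esrrb is at 0.30. They also lie nearer to 0 without wildtype libraries 1 and 3, the highest for all 4 genes.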

How the data were processed

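The members and gene lists were chosen with earlier results of these data known. Reads were handled with HISAT2 2.2.1 on GRCm39, cutadapt 4.3, FastQC 0.12.1, featureCounts and DESeq2, per the submitters' processing notes. No annotation or strand setting is stated there. Gene rows hold raw read counts, as deposited. The mean of a group's counts and a mean normalized count, deposited signal values, were not used. A deposited DESeq2 table gives, per the file headers, a log2 fold change with its SE, a test score and p-values before and after adjustment.

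From the counts, genes were kept with filterByExpr (minimum count 10; 8065 of 41079 genes had no count), scaled by TMM and tested with edgeR 4.0.16 in R 4.3.3, with genotype as the factor and Benjamini-Hochberg adjustment. SEs were taken from the fold change and the F statistic, and 95% intervals as 1.96 SE. Profiles used log2 CPM with a prior count of 2. Alternatives were other scalings and filters, DESeq2 1.42.0, limma-voom (limma 3.58.1), the replicate number as a block, a melanocyte score as a covariate, wildtype libraries 1 and 3 left out together, and each library left out. The tests were tried on simulated data. No pair of libraries of a group was a duplicate (lowest chi-square per degree of freedom 10.7). Genes named are the 8 members, the 3 of each list with the smallest p (some genes of the lists are not reported here), the 3 nearest profiles of Kcne1, Kcnq1, Esrrb and Kcnj10, and Prox1, with Emx2 as a label check. Kcnq1ot1, Mitf, Sox10, Oca2, Tyrp1, Mlana, Gpr143, Hmx2, Esrra and Foxi1 were chosen after their values were seen.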

Additional observations from a re-analysis of the deposited data

Results flagged for a closer look

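Library 1 labelled knockout stood apart from the other 3 of its group in Kcne1, at 1.90 CPM against 0.851 to 0.951 CPM, and in Esrrb, at 8.21 CPM against 3.31 to 3.80 CPM. The gap to the nearest library, divided by the range of the group, was 0.905 and 0.900, above Dixon's 95% critical value. Over 16 groups examined, chance gives about 1 such value in 20 groups, and both come from the same library.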

How the results depend on the processing

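The fold changes of Kcne1, Kcnq1, Bsnd, Slc12a2 and Kcnj10 lay below 0 in every alternative that tested them (18 each, and 17 for Bsnd, which the filter of 50 counts in 4 libraries removed). Of the 8 genes, 1 was called lower without a filter, with DESeq2 and with the replicate block (Kcne1 in each), and 0 to 2 with 1 library left out, the 2 being Kcne1 and Esrrb without wildtype library 4. That library was the lowest wildtype library for both genes. With the melanocyte score as a covariate the log2 fold change of Esrrb was 0.30 and that of Lmx1a 0.036. Without wildtype libraries 1 and 3 together that of Lmx1a was 0.069 and that of Esrrg -0.086, and Esrrg ran from -0.13 to 0.14 with 1 library left out. Over all genes, 7 were called higher and 12 lower. The numbers higher were 4 with library size alone, 12 without a filter, 35 with DESeq2, 3 with the replicate block, 1 with the melanocyte score and 2 without wildtype libraries 1 and 3. The numbers lower were 24 without a filter, 48 with DESeq2, 7 with the melanocyte score and 7 without wildtype libraries 1 and 3. With 1 library left out, 2 to 7 were higher and 8 to 20 lower, the 20 being reached when library 4 labelled knockout was dropped. Of the libraries labelled knockout, dropping 1, 2 or 3 left 2 or 3 genes higher, as did dropping wildtype 1 or wildtype 3. The causes were not tested. The labels do not say whether replicate numbers pair the libraries. The deviations of same-numbered libraries correlated at 0.11, 0.21, -0.28 and -0.14 across genes. Genes are not independent replicates, so these values do not decide whether the libraries were paired. The replicate block gave Kcne1 a log2 fold change of -2.46 with an adjusted p of 0.0248 by edgeR. At 1 to 13 counts per library labelled knockout, Bsnd is limited by depth.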

Other observations

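Root and spindle cells of the lateral wall border the stria. Of 5 genes on their list 0 passed and 4 lay below 0, with a median log2 fold change of -0.30. Anxa1, an annexin gene of spindle cells, had 19.0, 17.7, 18.8 and 24.8 CPM in the libraries labelled knockout and 33.6, 24.8, 31.1 and 29.8 CPM in wildtype, a log2 fold change of -0.57 ± 0.12 with an adjusted p of 0.174 (edgeR, Benjamini-Hochberg). Its groups did not overlap, and neither did those of Dpp10 (-0.31 ± 0.11). Wildtype lay wholly above for 1.62% of tested genes, and both genes were named for their small p within the list. So was Kcnj16, the 1 gene of the list above 0, at 0.40 ± 0.14 and with groups that overlapped. Of 7 genes of fibrocytes and mesenchyme 0 passed, with a median of -0.00. Car3 among them had 92.1, 91.9, 87.2 and 103 CPM in the libraries labelled knockout and 176, 105, 140 and 118 CPM in wildtype (-0.53 ± 0.13), Pou3f4 had -0.12 ± 0.06 and Tbx18 -0.05 ± 0.07. Of 4 stria basal cell genes 0 passed, and the tight junction gene Cldn11 had -0.46 ± 0.19, Slc2a1 -0.13 ± 0.06 and Sox8 -0.03 ± 0.09.

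Of 10 genes of potassium recycling and endolymph 8 were tested and 0 passed, with a median of 0.02. The connexin gene Gjb2 had 0.06 ± 0.07, and Slc26a4, the anion exchanger pendrin, -0.30 ± 0.23. Foxi1, a factor of the endolymphatic sac, had no count in any library. Of 5 glia genes and 6 spiral ganglion neuron genes 0 passed, with medians of -0.10 and -0.08, Fabp7 at 0.17 ± 0.10, Foxd3 at -0.10 ± 0.06, Scg2 at -1.17 ± 0.46, Tubb3 at -0.12 ± 0.21 and Prph at -0.12 ± 0.27. All 6 endothelium and pericyte genes lay below 0 and 0 passed, with Abcc9 at -0.19 ± 0.07, Cdh5 at -0.23 ± 0.09, Kcnj8 at -0.31 ± 0.14 and a median of -0.16. Of 11 organ of Corti genes 1 passed, Prox1, with Fgfr3 at -0.13 ± 0.05 and Myo7a at -0.12 ± 0.07.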
